A study of Mus musculus with 12 samples.

Results

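The ATP-binding cassette (ABC) genes encode proteins that use the energy of ATP to move lipids, drugs, bile salts, metals and peptides across membranes, together with a few soluble relatives that act on ribosomes. They were taken as all genes whose symbol is Abc, a letter from a to g and a number, with an optional last letter. This gave 45 genes of the 18193 tested, which by subfamily were 14 of A, 8 of B, 10 of C, 3 of D, 1 of E, 3 of F and 6 of G. Each gene was read by the probe set that names it alone and has the highest mean over the 12 arrays, out of 92 probe sets for the family, and 19 of the genes had 1 probe set. The choice of probe set used no difference between groups, but the members were chosen with earlier results of these data known.

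The samples were mouse yolk sacs of strain 129Sv/C57BL/6, either wild type (Hypb+/+) or lacking Hypb (Hypb-/-), taken at the embryonic days E9.0 or E10.5. Hypb is the older name of Setd2, a histone methyltransferase that marks the bodies of transcribed genes, and the labels do not say which part of it was deleted. Each of the 4 groups held 3 arrays, and each array was made from a pool of 4 yolk sacs of 1 genotype, so the spread between arrays is a spread between pools. By the design text, the knockout has no severe visible defect at E9.0 and is close to death at E10.5.

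An ABC transporter is built from a pair of membrane domains and a pair of ATP-binding domains, either in 1 chain or from 2 half-transporters that join. Efflux pumps of the B, C and G subfamilies guard barrier tissues such as gut, liver, placenta and brain vessels, and the A1, G1, G5 and G8 transporters export cholesterol and other sterols. The outer layer of the yolk sac, the visceral endoderm, takes up maternal nutrients and lipids and passes them on as lipoproteins before the placenta and liver take over, and the inner mesoderm makes vessels and the first red cells.

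All values below are deposited log2 expression values made with RMA, and a difference of 1 is a factor of 2. The arrays had medians of 5.27 to 5.34, and pairs of arrays correlated at 0.973 to 0.994 (Spearman). For the 45 genes, the standard error (SE) of a difference between 2 groups ran from 0.081 to 0.292 with a median of 0.124, against 0.126 over all genes. A gene is called higher or lower where limma's adjusted p, by Benjamini-Hochberg over all 18193 genes of the comparison, was under 0.05. RMA values carry no depth and no detection call, and precision rests on the number of arrays and on each gene's spread between them. Setd2 read 7.53 to 7.99 in the knockout and 8.83 to 9.08 in the wild type at E9.0, and 7.77 to 8.07 against 8.66 to 8.77 at E10.5, so the genotype labels held on every array.

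Of the genes called lower in the E10.5 knockout below, Abcb1a, Abcb1b and Abcg5 lie in 2 groups of neighbouring genes. The others, Abcb11, Abcg2 and Abca1, lie on chromosomes 2, 6 and 4. Promoters of the 2 groups are shown here because the neighbours lie side by side and were not all called. On chromosome 5, Abcb1a, Abcb1b and Abcb4 follow each other with 0 annotated genes between them. On chromosome 17, Abcg5 and Abcg8 are likewise adjacent and are read from opposite strands. Sequences are from RefSeq (GRCm38.p6), which held a promoter for 35 of the 45 genes, and each runs from 250 bases before the start site to 50 bases after it on the gene's own strand. Capitals mark matches on either strand to the GC box (GGGCGG), the CCAAT box (CCAAT), the TATA box (TATAAA) and the GATA motif (AGATAA).
Abcb1a, chr5:8566841-8567140, plus strand: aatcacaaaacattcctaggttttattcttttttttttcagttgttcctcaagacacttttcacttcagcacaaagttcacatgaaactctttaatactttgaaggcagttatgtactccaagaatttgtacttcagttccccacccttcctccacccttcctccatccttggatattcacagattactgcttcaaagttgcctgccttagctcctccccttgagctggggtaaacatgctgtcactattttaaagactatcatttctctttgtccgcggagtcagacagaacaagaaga
Abcb1b, chr5:8797897-8798196, plus strand: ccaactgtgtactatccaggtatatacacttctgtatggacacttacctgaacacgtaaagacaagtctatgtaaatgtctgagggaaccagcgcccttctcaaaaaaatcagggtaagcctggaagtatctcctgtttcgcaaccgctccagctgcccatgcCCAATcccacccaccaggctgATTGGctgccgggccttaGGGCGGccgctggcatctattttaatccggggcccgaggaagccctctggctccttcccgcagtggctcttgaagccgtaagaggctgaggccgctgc
Abcb4, chr5:8893471-8893770, plus strand: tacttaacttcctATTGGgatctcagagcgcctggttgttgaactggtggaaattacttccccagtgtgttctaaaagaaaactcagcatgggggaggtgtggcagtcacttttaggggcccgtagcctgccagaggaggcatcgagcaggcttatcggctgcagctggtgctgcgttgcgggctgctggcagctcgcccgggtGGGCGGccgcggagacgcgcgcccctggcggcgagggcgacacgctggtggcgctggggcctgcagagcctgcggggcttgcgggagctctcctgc
Abcg5, chr17:84682962-84683261, minus strand: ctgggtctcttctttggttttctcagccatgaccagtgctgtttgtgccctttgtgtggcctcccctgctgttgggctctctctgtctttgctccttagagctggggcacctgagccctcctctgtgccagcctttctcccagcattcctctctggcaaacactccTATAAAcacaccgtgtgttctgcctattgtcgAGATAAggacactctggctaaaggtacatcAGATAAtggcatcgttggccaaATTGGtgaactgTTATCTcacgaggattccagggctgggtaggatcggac

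The Abcb1a window held none of the motifs searched and 2 CpG dinucleotides, against 12 in the Abcb1b window, 21 in the Abcb4 window and a median of 7 over 32851 RefSeq promoters. Abcb1b had 1 GC box and 2 CCAAT boxes, and Abcb4 had 1 of each. Abcg5 had 1 TATA box, 1 CCAAT box and 3 GATA motifs. For Abcg8, 2 start sites were listed, and the window of 1 of them was used (chr17:84682871-84683170, plus strand). This window shares 209 bases with that of Abcg5, because these start sites lie 110 bases apart. The TATA, CCAAT and GATA matches of Abcg5 all lie in both windows. Over all promoters of this length the GC box was present in 35.7%, the CCAAT box in 37.4%, the TATA box in 13.6% and the GATA motif in 11.2%. The nuclear receptor half-site (AGGTCA, 16.3%) and the AP-1 motif (TGANTCA, 7.81%) were also searched, and neither was present in these windows. The Abcb11 and Abca1 windows, not shown, were searched too. That of Abcb11 held 1 half-site, and that of Abca1 held 2 GC boxes and 1 TATA box. No matches overlapped each other. A match is a description of the letters and is no evidence that a factor binds there.

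At E10.5, 6 of the 45 ABC genes were lower in the knockout and 0 were higher. The 6 were the drug pumps Abcb1a, Abcb1b and Abcg2, the bile salt pump Abcb11, and the sterol transporters Abca1 and Abcg5. Over all genes, 3.16% were called lower and 4.12% higher (7.28% in all), against 13.3% and 0% of the ABC genes. The median change of the family was -0.01, equal to that of all genes, and 12 of the 45 (26.7%) had an unadjusted p under 0.05, against 20.2% of all genes. In bulk tissue, fewer cells of a type and less RNA per cell cannot be told apart.

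Abcb1a and Abcb1b both encode P-glycoprotein, the pump of hydrophobic drugs that human cells make from 1 gene. Abcb1a read 5.87, 5.71 and 5.78 on the knockout arrays and 6.69, 7.09 and 7.11 on the wild type arrays. All 3 knockout arrays lay well below the lowest wild type array, and the fitted change was -1.18 (2.26-fold lower; SE 0.124; adjusted p = 0.000209, limma). Abcb1b read 7.16, 6.80 and 6.73 in the knockout and 7.84, 7.92 and 8.02 in the wild type. The groups were again separate, with a change of -1.03 (2.04-fold lower; SE 0.131; adjusted p = 0.000619, limma). The pair are close paralogs, and whether their probes also bind the other transcript was not tested.

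Abcb11, the bile salt export pump of liver cells, read 5.84, 6.00 and 5.72 in the knockout and 6.5, 6.62 and 6.49 in the wild type. The gap between the groups was wider than the spread within either, with a change of -0.68 (1.61-fold lower; SE 0.119; adjusted p = 0.00466, limma). Abcg2, which exports drugs, porphyrins and urate, read 11.71, 11.83 and 11.68 against 12.14, 12.24 and 12.14. Its knockout arrays were all lower, by a smaller amount of 0.43 on average (log2 change -0.43; 1.35-fold lower; SE 0.0885; adjusted p = 0.011, limma). Without replicate 2 of the E10.5 wild type, Abcg2 changed by -0.40 and missed the threshold (adjusted p = 0.0531).

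Abca1 loads cholesterol and phospholipid onto apolipoprotein A-I, the first step in making high-density lipoprotein. It read 9.55, 9.51 and 9.52 in the knockout and 9.93, 10.27 and 10.09 in the wild type. The knockout arrays were nearly equal and all lower, with a change of -0.57 (1.48-fold lower; SE 0.108; adjusted p = 0.00728, limma). Abcg5 joins Abcg8 in the pump that returns plant sterols and cholesterol to gut and bile, and it read 4.79, 4.88 and 4.59 against 5.48, 5.36 and 5.33. It was lower on every knockout array, with a change of -0.64 (1.55-fold lower; SE 0.13; adjusted p = 0.0112, limma). Without replicate 1 of the E10.5 wild type its change was -0.59 and just missed the threshold (adjusted p = 0.0503).

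**Figure D1:**
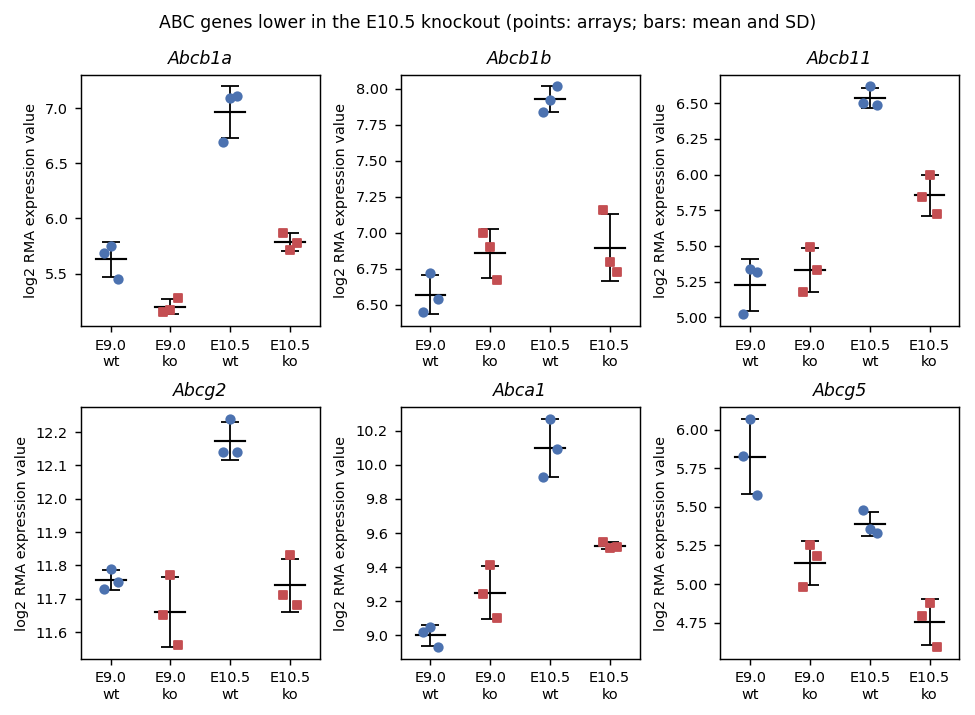
Log2 RMA expression values (vertical axis, a separate range in each panel) of the 6 ABC genes that were lower in the E10.5 knockout, in wild type (wt, circles) and knockout (ko, squares) yolk sacs at E9.0 and E10.5, with points for single arrays and bars for mean and SD (n = 3). At E10.5 the knockout arrays lie below the wild type arrays in every panel, and at E9.0 they do so for Abcb1a and Abcg5, while those of Abca1 lie above.

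Spike-in controls set replicate 3 apart at both stages. The bioC minus bioB difference was -0.11 and 0.01 on the E9.0 replicate 3 arrays against 1.44 to 1.5 on the other E9.0 arrays, and the dap 3′ minus 5′ difference was 1.76 and 1.74 on the E10.5 replicate 3 arrays against 1.05 to 1.31 on the other E10.5 arrays. The labels name no batch. Within replicates 1 and 2 the E10.5 changes were -1.10 for Abcb1a, -0.90 for Abcb1b, -0.64 for Abcb11, -0.42 for Abcg2, -0.57 for Abca1 and -0.58 for Abcg5. Within replicate 3 they were -1.33, -1.29, -0.77, -0.46, -0.57 and -0.74 in the same order, so each gene was lower in both sets of arrays. With these sets of arrays, or the replicate number, as a block in the fit, all 6 passed again, and the batch block added Abcd2, a peroxisomal half-transporter (0.30; adjusted p = 0.0456).

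The other 39 ABC genes changed by -0.42 to 0.59 at E10.5 and did not pass (adjusted p from 0.0887 to 1). In 14 of the 45 genes (31.1%) the knockout and wild type arrays did not overlap, 7 in each direction, against 22.8% of all genes (11.5% higher and 11.3% lower). Among the uncalled pumps, the glutathione conjugate exporter Abcc1 read 7.17, 6.81 and 6.93 in the knockout against 6.69, 6.02 and 6.47 (0.58, SE 0.204; adjusted p = 0.121). Abcc6, a transporter whose loss causes ectopic mineralisation, read 3.58, 3.80 and 3.84 against 3.99, 4.14 and 4.36 (-0.42, SE 0.137; adjusted p = 0.0887). The first was higher and the second lower on every knockout array, without passing the test.

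Of the 11 sterol and phospholipid transporters, 2 fell at E10.5 and 0 rose, and their median change was 0.03. Abcg1, which exports cholesterol to lipoprotein particles, read 5.54, 5.34 and 5.57 in the knockout and 5.36, 5.40 and 5.17 in the wild type (0.17, SE 0.118; adjusted p = 0.475). Of the 13 drug, conjugate and bile salt pumps, 4 fell and 0 rose, with a median of -0.13. None of the 8 other A subfamily genes, the 2 channel regulators, the 3 mitochondrial half-transporters, the 4 peroxisomal and lysosomal half-transporters or the 4 soluble E and F proteins passed at E10.5 in the limma fit. Of these groups, 0, 1, 0, 1 and 1 genes in that order had an unadjusted p under 0.05.

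Among the genes in those groups, Abcb10, a mitochondrial transporter needed for haemoglobin synthesis in red cell precursors, spread widely. It read 8.77, 8.95 and 9.94 in the knockout and 9.61, 9.14 and 10.12 in the wild type (-0.40, SE 0.292; adjusted p = 0.508), and replicate 3 was the highest array of both groups. Abce1, which splits ribosomes after translation ends, read 10.77, 10.84 and 11.03 against 11.07, 10.94 and 11.25 (-0.21, SE 0.109; adjusted p = 0.324). Abcf1, which assists the start of translation, read 9.17, 9.16 and 9.59 against 9.63, 9.79 and 9.47 (-0.32, SE 0.131; adjusted p = 0.181). In both of the last 2 genes the groups overlapped. Abcf1 passed without replicate 3 of the E10.5 knockout (-0.47; adjusted p = 0.0316) and within replicates 1 and 2 (-0.55; adjusted p = 0.0175). Within replicate 3 it changed by 0.12. Its other 5 probe sets ran from -0.36 to 0.22 at E10.5, 2 of them below 0, and none was called.

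At E9.0, 1 ABC gene passed, which was Abcg5, lower in the knockout, and 0 were higher. Over all genes 0.632% were called lower, 0.55% higher and 1.18% in either direction, so a single call among 45 (2.22%) is no result about the family. An unadjusted p under 0.05 was reached by 7 of the 45 (15.6%), against 11.8% of all genes. Abcg5 read 4.98, 5.25 and 5.18 in the knockout and 5.83, 6.07 and 5.58 in the wild type. The knockout arrays were all lower, with a change of -0.69 (1.61-fold lower; SE 0.13; adjusted p = 0.0284, limma), which was -0.84 within replicates 1 and 2 and -0.40 within replicate 3. The call rested on single arrays: without knockout replicate 1 the change was -0.61 (adjusted p = 0.149), without knockout replicate 3 it was -0.71 (0.0713), without wild type replicate 1 it was -0.69 (0.0926) and without wild type replicate 2 it was -0.57 (0.116). With the E9.0 arrays fitted alone the adjusted p was 0.0856. With the spike-in sets as a block Abca8b also passed at E9.0 (-0.45; adjusted p = 0.0491). The effects on Abcg5 at the 2 stages differed by 0.05 (SE 0.184), with no call for a difference (adjusted p = 0.976).

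The other 44 genes changed by -0.45 to 0.55 at E9.0, and in 8 of the 45 (17.8%) the groups did not overlap, 4 in each direction, against 18% of all genes (8.56% higher and 9.42% lower). Abcb1a read 5.15, 5.17 and 5.28 in the knockout and 5.69, 5.75 and 5.45 in the wild type (-0.43, SE 0.124; adjusted p = 0.132), lower on every knockout array without passing. Abcb1b read 7.0, 6.90 and 6.67 against 6.45, 6.72 and 6.54 (0.29, SE 0.131; adjusted p = 0.415), with groups that overlapped. Abca1 read 9.24, 9.41 and 9.10 against 9.02, 9.05 and 8.93 (0.25, SE 0.108; adjusted p = 0.377), higher on every knockout array. Abcb11 differed by 0.11, Abcg2 by -0.10, Abcg1 by -0.13, Abcb10 by 0.26, Abce1 by -0.09 and Abcf1 by -0.04, none of them past the threshold.

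**Figure D2:**
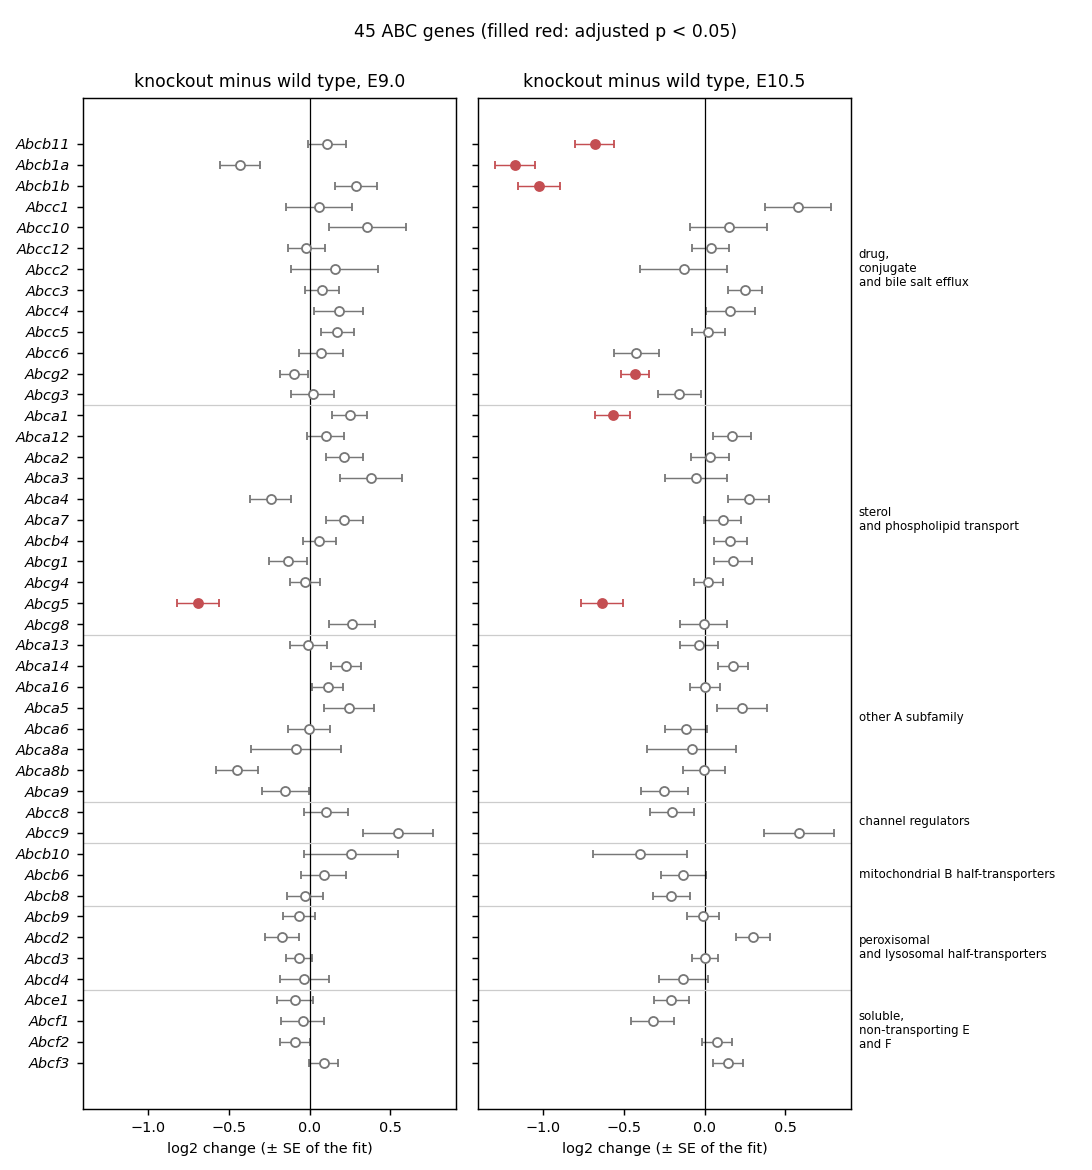
Log2 change, knockout minus wild type (horizontal axis), of the 45 ABC genes at E9.0 (left) and E10.5 (right), grouped by role, with bars for the SE of the fit and filled points for adjusted p under 0.05. At E9.0 Abcg5 is the only filled point, and at E10.5 the 6 filled points lie between -1.18 and -0.43, 4 of them among the drug, conjugate and bile salt pumps.

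The effect of the knockout differed between the stages for 1 ABC gene, Abcb1b, where 0.187% of all genes were called in either direction, 0.0824% in this one and 0.104% in the other. The E10.5 effect minus the E9.0 effect was -1.32 for Abcb1b (SE 0.185; adjusted p = 0.0123, limma). This difference was -1.26 within replicates 1 and 2 (adjusted p = 0.0668), and without replicate 2 of the E10.5 wild type it was -1.32 (0.0525), and both missed the threshold. The next differences by adjusted p were -0.82 for Abca1 (SE 0.152; adjusted p = 0.0514), -0.79 for Abcb11 (SE 0.168; 0.098) and -0.75 for Abcb1a (SE 0.175; 0.13). For Abca1, by the probe set used, the knockout arrays were all above the wild type at E9.0 and all below at E10.5. Its call depended on the fit: the same -0.82 passed with the replicate number as a block (adjusted p = 0.0401), with that number as a block within each stage (0.0473), with the spike-in sets as a block (0.0377) and with another variance model (0.0468). Abcb11 passed with the replicate block over all arrays (0.0424) and within stage (0.0317), and Abcb1a with the mean of its probe sets (-1.03; adjusted p = 0.0308). In 28 of the 45 genes the E10.5 effect was the more negative, as it was in 9099 of all 18193 genes. The median difference was -0.10 against 0.00 over all genes.

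Within the neighbouring groups the members did not read alike. At E10.5 Abcb4, which moves phosphatidylcholine into bile, read 6.28, 6.45 and 6.36 in the knockout and 6.25, 6.18 and 6.18 in the wild type. Its knockout arrays lay slightly above, and the change of 0.16 (95% interval -0.06 to 0.38; adjusted p = 0.444) lies outside the interval of its neighbour Abcb1b (-1.31 to -0.75). Abcg8, the partner of Abcg5, read 5.68, 5.72 and 5.85 in the knockout against 5.69, 5.72 and 5.86, so that its arrays were nearly equal in pairs. Its change was -0.01 with an interval of -0.32 to 0.31 (adjusted p = 0.988), while that of Abcg5 was -0.64 with an interval of -0.92 to -0.35. At E9.0 Abcg8 differed by 0.26 (SE 0.145; adjusted p = 0.532) and Abcb4 by 0.06 (SE 0.103; adjusted p = 0.908). Each of Abcg5, Abcg8 and Abcb4 was read by 1 probe set, and the differences between genes were not tested.

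**Figure D3:**
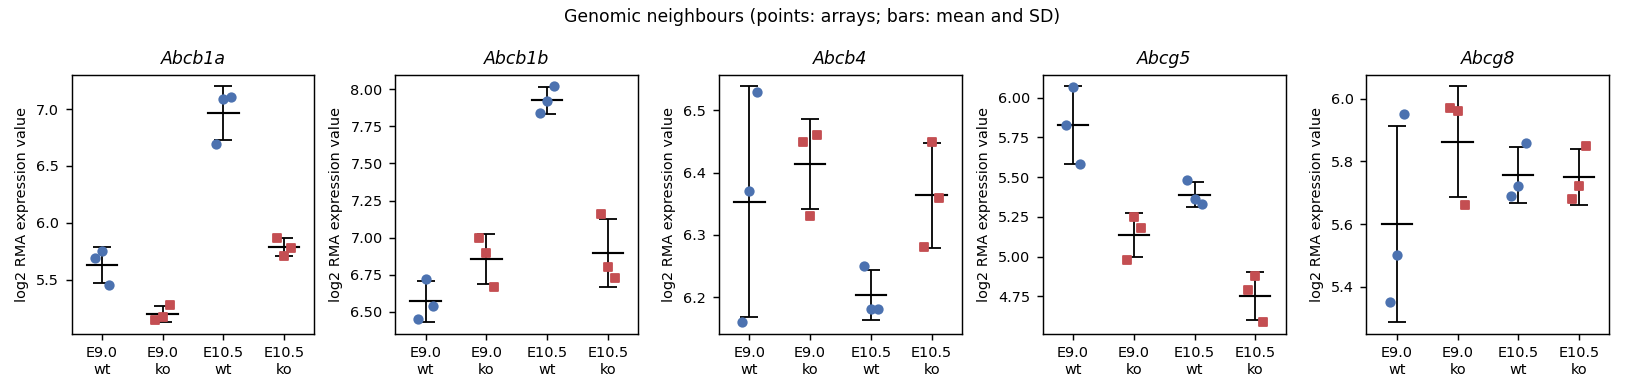
Log2 RMA expression values (vertical axis, a separate range in each panel) of the neighbours Abcb1a, Abcb1b and Abcb4 on chromosome 5 and Abcg5 and Abcg8 on chromosome 17, by group, with points for arrays (circles wild type, squares knockout) and bars for mean and SD (n = 3). At E10.5 the knockout arrays of Abcb1a, Abcb1b and Abcg5 lie below all wild type arrays, those of Abcb4 lie between 6.28 and 6.45 just above them, and those of Abcg8 overlap them.

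Some genes had further probe sets, tested in a fit over every probe set with 1 symbol. The second probe set of Abcb1a fell by 1.85 in the E10.5 knockout (log2 change -1.85, SE 0.154; adjusted p = 7.89e-05), a larger change than the -1.18 of the one used. Abcb1b had a second probe set with a mean of 3.32 that changed by 0.02 (SE 0.14; adjusted p = 0.967). The other 2 probe sets of Abca1 changed by -0.45 (SE 0.239; adjusted p = 0.36) and -0.76 (SE 0.311; adjusted p = 0.214), in the same direction and with larger errors. At E9.0 these 2 differed by -0.12 and 0.23, against 0.25 for the one used, and neither was called. With the mean of all probe sets in place of 1, Abca1 changed by -0.59 at E10.5 and missed the threshold (adjusted p = 0.107), and the difference between stages for Abcb1b was -0.67 (adjusted p = 0.102).

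**Figure D4:**
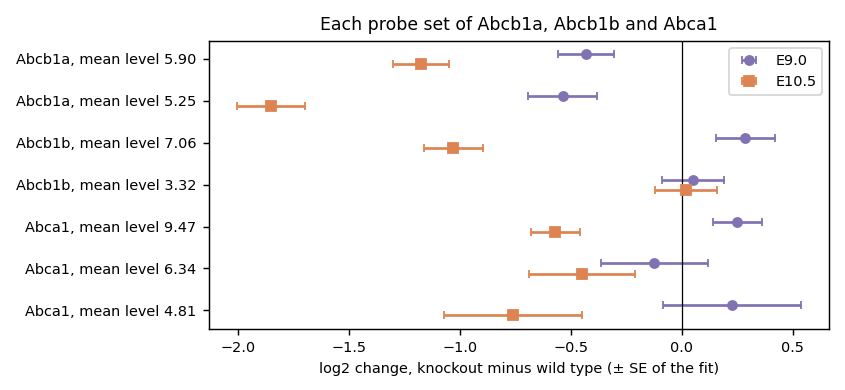
Log2 change, knockout minus wild type (horizontal axis), for each probe set of Abcb1a, Abcb1b and Abca1 at E9.0 (circles) and E10.5 (squares), with the mean level over 12 arrays in each label and bars for the SE of the fit. Both Abcb1a probe sets are below 0 at both stages, and the second Abcb1b probe set is near 0 at both stages. All 3 Abca1 probe sets are below 0 at E10.5 and lie on both sides of 0 at E9.0.

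Between E9.0 and E10.5 in the wild type, 16 of the 45 ABC genes changed, 10 higher and 6 lower. Over all genes 13.4% were higher and 8.86% lower (22.2% in all), against 22.2% and 13.3% of the ABC genes. The largest rises were in Abcb1b (1.36, SE 0.131), Abcb1a (1.33, SE 0.124), Abcb11 (1.31, SE 0.119) and Abca1 (1.10, SE 0.108), with adjusted p from 1.89e-05 to 2.94e-05 (limma), and Abcg2 rose by 0.42 (SE 0.0885; adjusted p = 0.0049). These rises use the same E10.5 wild type arrays as the knockout comparison at that stage, so both sets of values depend on them. On the E9.0 wild type arrays Abcb1b had read 6.45 to 6.72, Abcb1a 5.45 to 5.75, Abcb11 5.02, 5.34 and 5.32, Abca1 8.93 to 9.05 and Abcg2 11.73, 11.79 and 11.75, all below the E10.5 wild type arrays. Markers of other cell types also changed between these stages in the wild type, with 4 of 5 macrophage markers higher. Of 6 endothelial markers 3 were lower and 1, Emcn, was higher. The part of these cell types in the ABC changes was not tested.

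In the knockout, 10 of the 45 genes changed with stage, 6 higher and 4 lower, where 14.4% and 9.17% of all genes were called (23.6% in either direction). Abcb1a rose by 0.59 (SE 0.124; adjusted p = 0.00459) and Abcb11, from 5.18, 5.49 and 5.33 at E9.0, by 0.52 (SE 0.119; adjusted p = 0.00714). Abcb1b changed by 0.04 (95% interval -0.24 to 0.32; adjusted p = 0.872), which against its rise of 1.36 in the wild type is the same difference of -1.32. Abca1 changed by 0.28 (SE 0.108; adjusted p = 0.0838) and Abcg2, from 11.65, 11.77 and 11.56, by 0.08 (interval -0.11 to 0.27; adjusted p = 0.581).

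Other rises were seen in both genotypes. Abcc9, the sulphonylurea receptor subunit of vascular and muscle potassium channels, read 5.15, 4.98 and 5.47 at E9.0 and 6.08, 6.38 and 6.06 at E10.5 in the wild type, and 5.82, 6.12 and 5.3 and then 7.12, 6.41 and 6.75 in the knockout. It rose by 0.97 (SE 0.217; adjusted p = 0.00652) and 1.01 (adjusted p = 0.00499), with no overlap of the stages in either genotype. Its other 2 probe sets gave 0.53 and 0.30 in the wild type and 0.48 and 0.31 in the knockout, none of them called. Abca5, a transporter of endosomes and lysosomes, read 5.44, 4.91 and 5.38 and then 6.11, 5.99 and 6.36 in the wild type, and 5.44, 5.72 and 5.31 and then 6.49, 6.30 and 6.36 in the knockout. It rose by 0.91 (SE 0.155; adjusted p = 0.00128) and 0.89 (adjusted p = 0.00139), while its other probe set gave 0.19 and 0.12 with no call. Abca9 rose by 0.57 (SE 0.145; adjusted p = 0.0139) and 0.47 (adjusted p = 0.0346), and in the knockout it read 4.54, 4.11 and 4.50 and then 4.71, 5.04 and 4.80, while its other probe set gave 0.17 and 0.21 with no call. The differences between genotypes were 0.04 for Abcc9, -0.02 for Abca5 and -0.10 for Abca9, with adjusted p from 0.957 to 0.994.

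Smaller rises in the wild type were those of Abcc6 and of Abcc8, the sulphonylurea receptor of endocrine cells, each by 0.43 (adjusted p = 0.0398 and 0.0369). Both genes were dim, with means of 3.86 and 3.44 over the 12 arrays, where the median gene lay at 6.52. In the knockout they changed by -0.07 and 0.12, without a call. Abca8b was called in the knockout alone, from 3.79, 3.59 and 3.44 to 4.20, 3.97 and 4.09 (0.48, SE 0.129; adjusted p = 0.0173), against 0.03 in the wild type. The test of that difference did not pass (0.45, SE 0.183; adjusted p = 0.503).

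Of the 4 soluble E and F proteins 1 fell with stage in each genotype, Abcf1, and of the 3 mitochondrial half-transporters 1, Abcb6. Abcf1 read 10.03, 10.08 and 10.29 and then 9.63, 9.79 and 9.47 in the wild type, and 10.02, 10.09 and 10.16 and then 9.17, 9.16 and 9.59 in the knockout. It fell by 0.50 (log2 change -0.50, SE 0.131; adjusted p = 0.015) and by 0.78 (-0.78; adjusted p = 0.00112), and the stages were separate in both genotypes. Its other 5 probe sets ran from -1.52 to -0.13 in the wild type, with 1 called, and from -1.06 to 0.07 in the knockout, with 2 called. Abcb6, a mitochondrial half-transporter linked to porphyrin, read 8.34, 8.32 and 8.14 and then 7.76, 7.96 and 7.68 in the wild type, and 8.49, 8.23 and 8.34 and then 7.65, 7.39 and 7.96 in the knockout. It fell by 0.47 (log2 change -0.47, SE 0.14; adjusted p = 0.0296) and by 0.69 (-0.69; adjusted p = 0.00364).

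Abcb10 changed by -0.13 in the wild type and -0.79 in the knockout, from 10.05, 10.11 and 9.87 to the E10.5 values above, without passing (adjusted p = 0.813 and 0.0688). Its other 2 probe sets fell by 1.32 and 0.63 in the knockout (log2 changes -1.32 and -0.63; adjusted p = 0.00765 and 0.00554, limma). In the wild type they changed by -0.92 (adjusted p = 0.0432, limma) and -0.36 (0.0737), and the first was called. The result of Abcb10 thus depends on the probe set in both genotypes. Within replicates 1 and 2 the probe set used passed in the knockout (-1.22; adjusted p = 0.0047). Abce1 changed by 0.05 and -0.06, with an interval of -0.30 to 0.17 in the knockout. Its 3 probe sets disagreed: that with a mean of 6.15 changed by -0.57 in the wild type (adjusted p = 0.109) and fell in the knockout (-0.78, SE 0.229; adjusted p = 0.0333), while the other, at 10.47, changed by 0.14 and 0.04 with no call. Probe sets also disagreed for the uncalled Abcc5 and Abcg4. Abcc5 changed by 0.15 in the wild type and -0.003 in the knockout. Of its other 9 probe sets, 4 were called higher in the wild type and 3 in the knockout, by up to 0.61 and 0.95. Abcg4 changed by 0.02 in the knockout, while its other probe set fell (-0.52, SE 0.148; adjusted p = 0.0294).

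In the wild type the largest fall was that of Abcc1, from 7.48, 7.33 and 7.02 to 6.69, 6.02 and 6.47 (-0.88, SE 0.204; adjusted p = 0.00787). In the knockout Abcc1 went from 7.12, 7.13 and 7.76 to the E10.5 values above (-0.37, adjusted p = 0.229), and the difference of 0.52 was not called (adjusted p = 0.702). Abcg1 fell from 5.75, 5.96 and 5.57 to 5.36, 5.40 and 5.17 (-0.45, SE 0.118; adjusted p = 0.0155), and with the mean of its probe sets it changed by -0.23 (adjusted p = 0.108). Abcg5 fell by 0.44 (log2 change -0.44, SE 0.13; adjusted p = 0.0294) and in the knockout changed by -0.38 (adjusted p = 0.0502), which passed with the replicate block (0.0306). Abca4, which in the retina moves retinoids, fell from 6.42, 5.96 and 5.89 to 5.73, 5.67 and 5.63 (-0.41, SE 0.128; adjusted p = 0.0347).

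Called in the knockout but not in the wild type were Abcc2 and Abca3. Abcc2, the exporter of bilirubin conjugates into bile, went from 10.35, 9.98 and 10.56 to 9.62, 9.78 and 8.78 (-0.90, SE 0.271; adjusted p = 0.0292), against -0.62 in the wild type (adjusted p = 0.13). Abca3, which loads lipid into the lamellar bodies of lung, went from 9.61, 9.69 and 9.69 to 9.11, 8.63 and 9.49 (-0.59, SE 0.193; adjusted p = 0.0439), against -0.15 in the wild type (adjusted p = 0.639). Neither difference between genotypes was called (adjusted p = 0.925 and 0.758).

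With the replicate number as a block Abca7 (0.31; adjusted p = 0.047) and Abca8a (0.52; 0.0411) also passed with stage in the wild type, and Abca8a in the knockout (0.52; 0.0379). Leaving out 1 array removed many of the stage calls. In the wild type those of Abca1, Abca5, Abcb11, Abcb1a, Abcb1b, Abcc1, Abcc9 and Abcg2 held in all 12 such fits. The other 8 each lost their call without 1 of several wild type arrays. Without E9.0 replicate 1 or E10.5 replicate 1, 2 or 3, Abca4 changed by -0.44 to -0.25. Without E9.0 replicate 1 or E10.5 replicate 3, Abca9 changed by 0.46 to 0.51. Abcb6 changed by -0.45 to -0.41 without E9.0 replicate 1 or 2 or E10.5 replicate 1 or 3. Abcc6 changed by 0.33 to 0.49 without any E9.0 replicate or E10.5 replicate 2 or 3, and Abcc8 by 0.34 to 0.47 without E9.0 replicate 1 or 3 or any E10.5 replicate. Abcf1 changed by -0.42 without replicate 3 of either stage, Abcg1 by -0.38 to -0.35 without E9.0 replicate 2 or E10.5 replicate 3, and Abcg5 by -0.43 to -0.32 without E9.0 replicate 1 or 2 or E10.5 replicate 2 or 3. Within replicates 1 and 2 alone, the wild type stage calls of Abca4, Abca9, Abcc6 and Abcc8 were also lost. In the knockout the stage calls of Abca5, Abcb11, Abcb1a, Abcb6, Abcc9 and Abcf1 held in all 12 fits without 1 array. Abca8b changed by 0.40 to 0.47 without E9.0 replicate 2 or 3 or E10.5 replicate 1 of the knockout, Abcc2 by -0.88 to -0.60 without E9.0 replicate 1 or 3 or E10.5 replicate 3, and Abca9 by 0.33 to 0.37 without replicate 2 of either stage, each missing the threshold. Abca3 held in 3 of 12 fits, those without E10.5 knockout replicate 3 or E9.0 wild type replicate 1 or 3.

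**Figure D5:**
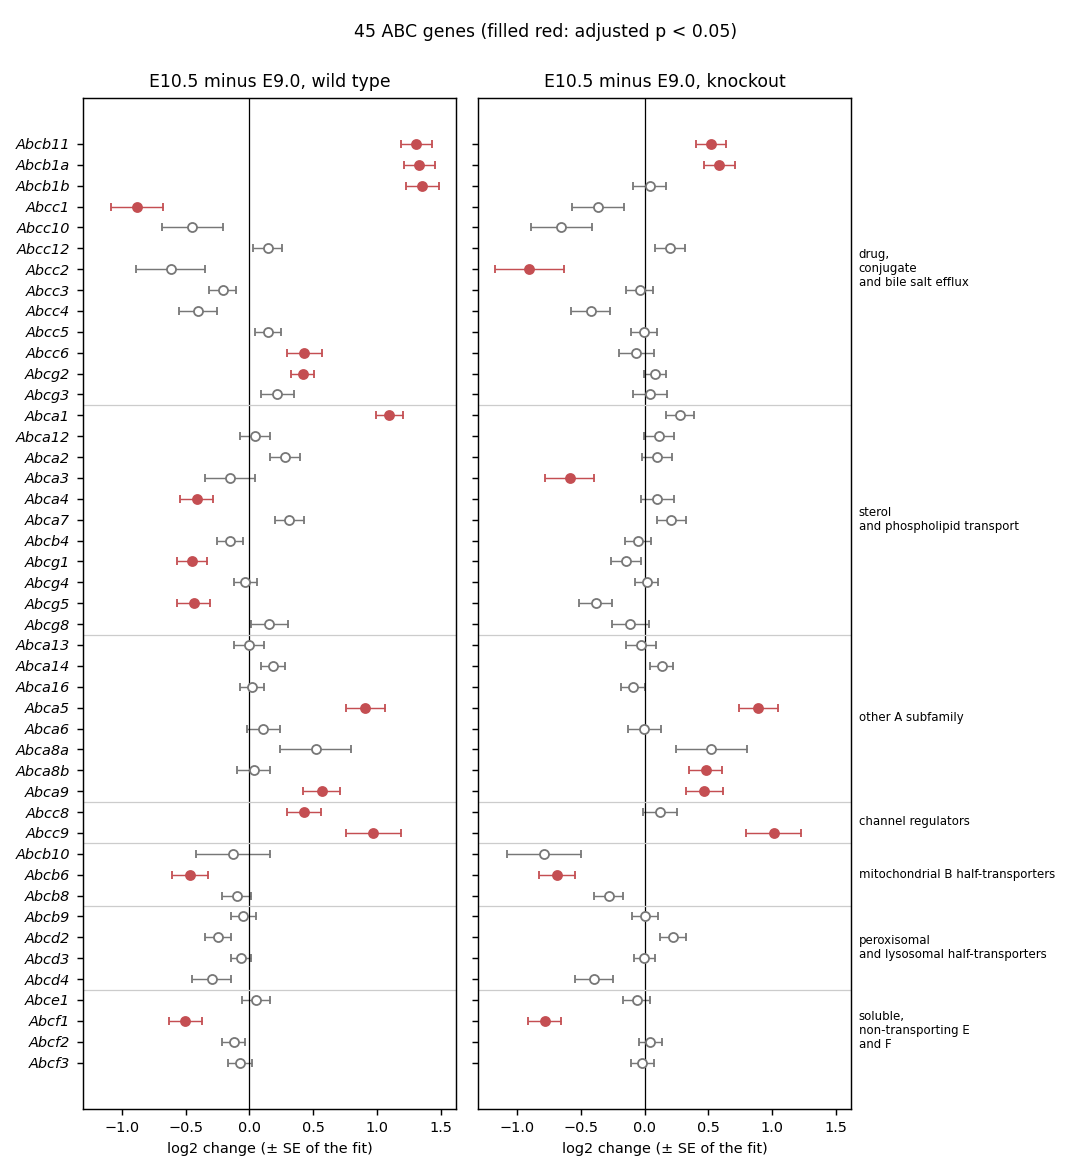
Log2 change, E10.5 minus E9.0 (horizontal axis), of the 45 ABC genes in the wild type (left) and the knockout (right), grouped by role, with bars for the SE of the fit and filled points for adjusted p under 0.05. Abcb1b is filled at 1.36 on the left and open at 0.04 on the right, while Abcc9 and Abca5 sit near 1 in both panels.

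Genes that work with the ABC transporters were counted from lists of partners. In the E9.0 knockout 0 genes of these 8 lists were called by limma, and 3 of the lists had 1 gene each with an unadjusted p under 0.05. At E10.5, Kcnj8, the pore that joins Abcc9 in the vascular potassium channel and its neighbour on chromosome 6, read 6.12, 5.33 and 5.56 in the knockout and 4.10, 4.07 and 4.16 in the wild type. It was higher on every knockout array (1.56, SE 0.197; adjusted p = 0.0006), while Abcc9 itself read 7.12, 6.41 and 6.75 against 6.08, 6.38 and 6.06 without passing (0.59, SE 0.217; adjusted p = 0.139). The other channel pore measured, Kcnj11, differed by 0.01.

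Of the 3 ABC proteins named outside the symbol pattern, the antigen peptide transporter gene Tap1 passed in the E10.5 knockout by the probe set used (0.42, SE 0.0967; adjusted p = 0.0211). With the mean of its probe sets the change was 0.05 (adjusted p = 0.768), and the call was also lost within replicates 1 and 2 (0.38; 0.103) and with the groups alone (0.096). Of 15 drug and bile acid sensors and oxidative stress genes 1 was higher, Gclc, which makes glutathione (0.80, SE 0.203; adjusted p = 0.0333). Of 10 haem and iron-sulphur genes 2 were lower, the scaffold Iscu (-0.39, SE 0.101; adjusted p = 0.035) and the sulphur donor Nfs1 (-0.34, SE 0.0895; adjusted p = 0.0364). Of 7 cobalamin and lysosome genes 1 was lower, the uptake receptor Cubn (-0.36, SE 0.0924; adjusted p = 0.0353). In fits without 1 array, Kcnj8 held its call in 12 of 12, Tap1 in 9, Gclc in 8, Iscu in 6, Nfs1 in 5 and Cubn in 4. With the E10.5 arrays fitted alone Gclc (adjusted p = 0.12), Iscu (0.105), Nfs1 (0.111) and Cubn (0.0971) did not pass, and with the mean of its probe sets Nfs1 changed by -0.17 (0.459). Of 14 genes of sterol sensing, efflux and lipoproteins 0 were called by limma and 3 had an unadjusted p under 0.05. A change below 0 was seen in 13 of them, with a median of -0.23. Over all genes 9536 of 18193 were below 0, with a median of -0.01. The 14 genes were read in the same pools, so their directions are not independent. The 10 peroxisome genes and the 8 partners of ribosome recycling had 0 calls and 1 gene each with an unadjusted p under 0.05.

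With stage, the receptor that switches on Abcb11 in liver, Nr1h4, rose in both genotypes. It read 5.79, 5.70 and 5.91 and then 8.35, 8.67 and 8.18 in the wild type (2.60, SE 0.184; adjusted p = 3.41e-06), and 6.31, 6.07 and 5.68 and then 7.87, 8.23 and 7.62 in the knockout (1.89; adjusted p = 3.18e-05). At E10.5 it differed by -0.49 between genotypes (SE 0.184; adjusted p = 0.143), with groups that overlapped. Nr1h3, the sterol sensor that activates Abca1, Abcg1, Abcg5 and Abcg8, rose by 0.96 (SE 0.136; adjusted p = 0.000409) and 0.69 (adjusted p = 0.00307). It differed by -0.10 between genotypes at E10.5 (adjusted p = 0.763).

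Among the sterol partners, Lcat (0.56) also rose in the wild type, Npc1 fell in both genotypes (-0.64 and -0.63), and Scarb1 fell in the knockout (-0.82). Apoa1 passed in the wild type (0.26) but not without any 1 of the 6 wild type arrays, and Scd2 in the knockout (-0.40) held in 1 of 12 fits without 1 array, that without E10.5 knockout replicate 3, and not with the replicate block (0.0502). Among the drug sensors and stress genes, Nqo1 rose by 0.75 and 0.70, Txnrd1 fell (-0.56 and -0.77), Keap1 (-0.59) and Gclc (-0.81) fell in the wild type and Hmox1 rose in the knockout (1.38). Txnrd1 in the wild type held in 8 of 12 fits without 1 array, and Hmox1 in 9. Among the haem and iron-sulphur genes Cpox (-1.32 and -1.64) and Glrx5 (-0.36 and -0.53) fell in both. Within replicates 1 and 2 both missed the threshold in the wild type, where Glrx5 held in 8 of 12 fits without 1 array. Slc25a37 passed in the knockout (-0.86) and held in 9 of 12 such fits, but not with the knockout arrays alone or within replicates 1 and 2. Nfs1 passed in the wild type (0.32), where the mean of its probe sets gave -0.002. Kcnj8 (1.35) and Tap1 (0.46) rose in the knockout, and with the mean of its probe sets Tap1 changed by 0.14 (adjusted p = 0.175).

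Of the 10 peroxisome genes 5 rose in the wild type, Pex3, Pex7, Pex13, Pex19 and Scp2, by 0.35 to 0.70, and 3 of them in the knockout, Pex3, Pex13 and Scp2. In the wild type Pex3 held in 6 of 12 fits without 1 array, and Pex7 and Pex19 in 10 each. The peroxisomal transporter Abcd3 meanwhile changed by -0.07 and 0.00 (SE 0.081), with all 3 E10.5 wild type arrays at 11.06. The ribosome rescue factor Hbs1l passed in both genotypes by the probe set used (-0.41 and -0.46), but with the mean of its probe sets it changed by -0.04 (adjusted p = 0.883) and -0.28 (0.197). Its partner Pelo passed in the wild type (-0.46) and in 4 of 12 fits without 1 array, those without E9.0 knockout replicate 3, E9.0 wild type replicate 2 or E10.5 knockout replicate 2 or 3. In the knockout Gcn1 fell (-0.75), and Gspt1 passed (-0.35) and held in 3 of 12 such fits, those without replicate 3 of the wild type at either stage or of the E10.5 knockout. Among the lysosome and cobalamin genes Lamp2 (0.79 and 0.73) and Lmbrd1 (0.50 and 0.46) rose in both, Mmachc fell in the wild type (-0.45), and Amn fell in the knockout (-0.73). Cubn passed in the knockout (-0.28) and held in 2 of 12 fits, those without knockout replicate 3 of either stage. Tcn2 passed there too (0.32) and held in 8 of 12 fits, but not with the knockout arrays alone (adjusted p = 0.0699), within replicates 1 and 2 (0.26; 0.067) or with the mean of its probe sets (0.0619). Of the partner calls with stage, 11 of 22 in the wild type and 15 of 24 in the knockout held in every fit without 1 array. With the mean of their probe sets, Txnrd1 in both genotypes (-0.42 and -0.48; adjusted p = 0.107 and 0.0644) and Lmbrd1 (0.22; 0.115) and Scp2 (0.36; 0.0794) in the knockout missed the threshold.

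Cell type markers moved with the E10.5 comparison. The visceral endoderm list averaged 12.77 to 12.95 over the knockout arrays and 12.95 to 13.05 over the wild type arrays, with 1 of 7 genes lower (Cubn), and the red cell list 11.0 to 11.68 against 11.61 to 11.73, with 0 of 6 called by limma and 1 with an unadjusted p under 0.05. The endothelial list averaged 7.42 to 8.09 against 7.01 to 7.50, with 1 of 6 higher, the mesenchymal list 11.18 to 11.92 against 10.98 to 11.21, with 2 of 6 higher, and the macrophage list 7.27 to 7.37 against 6.91 to 7.09, with 2 of 5 higher. The list for heart and neural tissue of the embryo proper averaged 4.57 to 5.75 against 3.91 to 4.01, with 2 of 7 higher, Myl7 (3.21) and Tnnt2 (1.92), and that for trophoblast and decidua had 0 of 3 called and 0 with an unadjusted p under 0.05. At E9.0 the visceral endoderm list averaged 12.75 to 13.00 in the knockout and 12.82 to 12.88 in the wild type. The macrophage list averaged 6.33 to 6.58 against 6.2 to 6.32, with 1 of 5 higher (Cd68). The heart and neural list averaged 4.16 to 4.24 against 4.18 to 4.91, with 0 of 7 called. The endoderm, red cell, endothelial, mesenchymal and trophoblast lists also had 0 calls. In that order 1, 0, 0, 2 and 0 of their genes had an unadjusted p under 0.05. The knockout effect on Tnnt2, 1 of 7 heart and neural markers, differed between the stages. With stage, the macrophage list averaged 6.2 to 6.32 over the E9.0 and 6.91 to 7.09 over the E10.5 wild type arrays, with 4 of 5 higher, and 5 of 5 were higher in the knockout. The mesenchymal list had 2 of 6 higher in the wild type and 3 in the knockout, and the endothelial list 1 higher and 3 lower (Cdh5, Kdr and Tek) in the wild type and 2 higher in the knockout. Myl7 (-1.68) and Tnnt2 (-1.77) fell in the wild type, while 3 of the 7 heart and neural markers rose in the knockout. The visceral endoderm list had 1 of 7 higher in both genotypes (Afp) and 2 lower in the knockout (Amn and Cubn), the red cell list had 1 of 6 lower in the wild type and 2 in the knockout, and Hand1 was 1 of 3 trophoblast markers lower in both. The part of these tissues in the ABC results was not tested.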

How the data were processed

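Total RNA of pooled mouse yolk sacs was hybridised to 12 Affymetrix mouse genome arrays, 1 colour each, with cRNA made from 5 micrograms of RNA per the labels' protocols. The deposited values are on a log2 scale and were made by the authors with RMA (version not given in the sources used here), per the submitters' processing notes. RMA corrects background, equalises array distributions and summarises probes. Scanner files were not used here. Of 45101 probe sets, 64 controls, 932 with several symbols and 9160 with no entry were left out, and the remaining 34945 gave 18193 genes. Equalising the distributions removes a change common to all transcripts.

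Groups and replicate numbers came from the titles. A mean per group was fitted over all 12 arrays (limma 3.58.1, R 4.3.3; 8 residual and 4.56 prior degrees of freedom), with two-sided tests and Benjamini-Hochberg adjustment over all genes of each of the 5 comparisons. The fit was tested on simulated data. Values of every array are given for called members (beyond 10 in a comparison, for the 6 largest rises and 6 largest falls), and Abca1, Abcg1, Abcg2, Abcb1a, Abcb1b, Abcb10, Abce1 and Abcf1 are always described. Of a list of partners, all called genes are given where 5 or fewer passed. The members and lists were chosen with earlier results of these data known. Further ABC genes of the reference table are not analysed here. The labels do not say that replicate numbers pair the arrays, and the numbers were not used as a block in the reported fit. Deviations of same-numbered arrays of a stage correlated at 0.03 to 0.40, above 0 in all 6 pairs but not above 0.1 in each, against -0.36 to 0.26 for other numbers. The replicate block over all arrays also joins the numbers across stages. There same-numbered arrays correlated at -0.03 to 0.19, against -0.20 to 0.13 for other numbers. Calls that the blocks change are given beside the results. Promoters came from RefSeq (GRCm38.p6). Alternatives were another variance model, only the groups compared, replicate and batch blocks, replicates 1 and 2 alone, 2 rescalings, a filter on level, the mean of all probe sets, and leaving out each array.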

Additional observations from a re-analysis of the deposited data

Results flagged for a closer look

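The effect of the knockout on Abcb1b differed between the stages by -1.32 on the log2 scale (SE 0.185; adjusted p = 0.0123, limma). It was 0.29 at E9.0, where the groups overlapped, and -1.03 at E10.5, where 3 of 3 knockout arrays lay below the wild type.

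For Abca1 the difference was -0.82 (SE 0.152) and did not pass in the reported fit (adjusted p = 0.0514, limma), but passed with the replicate number as a block (0.0401) and with the spike-in sets as a block (0.0377). It stood out because 3 of 3 knockout arrays were above all wild type arrays at E9.0 and 3 of 3 were below them at E10.5. Over all genes, 8.56% were higher without overlap at E9.0 and 11.3% were lower without overlap at E10.5. The share with both was not counted. The other 2 probe sets of Abca1 differed by -0.12 and 0.23 at E9.0, and neither was called.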

How the results depend on the processing

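Of 2026 values under an alternative, over the called ABC and partner genes, Setd2 and, in the knockout comparisons, 8 ABC genes described whether called or not, 1796 kept their direction and their side of the threshold, 225 kept their direction but lost the call, 2 gained a call (Abcf1 at E10.5) and 3 changed sign. Calls gained by ABC genes outside that set are in the counts below. The sign changes were Abcf1 in the E9.0 knockout (0.00 within replicates 1 and 2, 0.04 without E9.0 wild type replicate 3, and -0.10 to 0.04 without any 1 array) and Nfs1 with stage in the wild type (-0.002 with the mean of its probe sets), and the cause was not tested. For the E9.0 knockout, ABC calls were 0 with the groups compared alone, 2 with a batch block and 0 among genes above the median level (fewer genes tested), and all-gene calls were 61, 476 and, with a replicate block within stage, 349, and 69 within replicates 1 and 2, against 215. For the E10.5 knockout, the 6 ABC calls were 3 above the median level, and the 1325 calls over all genes were 773 with the groups alone, 2081 with the batch block and 873 above the median level. For the difference between stages, ABC calls were 2 with another variance model, 3 with the replicate block, 3 with it within stage, 2 with the batch block, 0 within replicates 1 and 2 and 0 above the median level, and all-gene calls were 61 and 115 with the replicate blocks, 91 with the batch block and 0 above the median level, against 34. With stage, ABC calls above the median level were 6 in the wild type and 5 in the knockout. The replicate block left 1 and 6 ABC calls in the knockout at E9.0 and E10.5 and gave 18 and 12 with stage in wild type and knockout. Leaving out each array gave 0 to 1 ABC calls and 33 to 290 calls in all for the E9.0 knockout, 5 to 7 and 693 to 1630 for the E10.5 knockout, 0 to 1 and 12 to 90 for the difference, 8 to 17 and 2911 to 4513 with stage in the wild type, and 7 to 14 and 3093 to 4790 with stage in the knockout. Without 1 array Setd2 changed by -1.45 to -1.22 at E9.0 and -0.92 to -0.77 at E10.5. Abcg2 in the E10.5 knockout had an adjusted p of 0.0502 with the groups alone, and the difference for Abcb1b 0.0771 above the median level. RMA compresses changes of dim probe sets towards 0, so small changes of dim members may be missed.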
